A study of Mus musculus with 18 samples.

Results

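The transient state examined here is that of differentiating progenitors (DP), the middle of 3 sorted cell fractions of the embryonic mouse cortex (lateral part, embryonic day 14.5), set against both ends of the lineage, proliferating progenitors (PP) and neurons (Neuron). Its members are the genes whose 3 DP libraries all lay above, or all below, the 3 PP and the 3 Neuron libraries. Of 38250 features in the deposited count tables, 18627 had enough reads to be tested, and of these 1111 lay above without overlap (5.96%) and 1095 below (5.88%). All 18 samples of the series were used.

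The embryos were C57BL/6, and the label gives all of them the genotype Btg2GFP/Tubb3GFP, with fluorescent reporters for Btg2, which restrains proliferation and comes on in progenitors due to form neurons, and for Tubb3, which encodes a neuronal tubulin. Sample titles write RFP for the Btg2 fractions, so the colour follows the titles: PP lacked the red signal, DP had it and Neuron had the green one. Meninges and ganglionic eminences were removed, cells were dissociated with papain, and each sample pooled embryos from several litters, per the labels' protocols. The gate reads reporters and not cell identity, so each fraction can hold other cells that share its colour. No treatment was given, and poly-A RNA of each of 9 libraries was sequenced in a single-read and a paired-end run, which gives the 18 samples.

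In the embryonic cortex, radial glia at the ventricle divide to renew themselves or to give rise to intermediate progenitors, which leave the ventricular surface, divide again and produce neurons. Proneural transcription factors of the basic helix-loop-helix (bHLH) family drive that step and switch on Delta ligands, which activate Notch receptors on neighbouring cells and hold those in the progenitor state. A gene used only during the step would be low at both ends and high between them, and a gene shut off during the step would show the opposite profile.

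Counts of both runs of a library were added and gave 34337209 to 55935128 per library. Levels are CPM, counts scaled to a common library total, listed for libraries L222, L355 and L393 in PP, L223, L356 and L394 in DP, and L224, L357 and L395 in Neuron. Library L223 stood apart from the other DP libraries in globin reads, 0.0123% of its counts against 0.00175% and 0.00195%. Summed over lists of markers, 32 radial glia genes held 14700 to 16400 CPM in PP, 43 intermediate progenitor genes 11300 to 13800 CPM in DP and 30 pan-neuronal genes 27800 to 29800 CPM in Neuron, each the highest of the 3 fractions. Btg2 is on the intermediate progenitor list and Tubb3 on the pan-neuronal one, and these lists were drawn up with earlier results of these data known, so the sums are a description and no check of the labels.

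Most genes without overlap also passed the test against each end. A gene was called higher when DP exceeded PP and exceeded Neuron, each at a Benjamini-Hochberg adjusted p under 0.05 by edgeR's quasi-likelihood test over all features, and no library overlapped. On this rule 776 genes were higher (4.17% of features tested) and 793 lower (4.26%), and the remaining genes without overlap missed the test. Another 38 and 44 genes passed both tests but had overlapping libraries. The absence of overlap and the test rest on the same libraries, and both steps share the DP libraries, so neither is independent support for the other. In a bulk fraction, more cells of a type and more RNA per cell cannot be told apart.

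Genes called higher came from both sides of the lineage. For 318 of the 776 (41%) PP still exceeded Neuron, for 153 (19.7%) Neuron exceeded PP, and for 305 (39.3%) the ends were not distinguished by the test. Over all features tested, of which 14035 (75.3%) differed between Neuron and PP in either direction, those shares were 38.6%, 36.7% and 24.7%. Of the 793 genes called lower, 82 (10.3%) were higher in PP than in Neuron, 405 (51.1%) were higher in Neuron and 306 (38.6%) had ends that the test did not distinguish. The smaller of the folds against the ends had a median of 1.48 in both sets. It reached 2-fold for 236 genes called higher and 174 called lower, and 4-fold for 79 and 23. The median level in DP was 37 CPM for the higher and 10.2 CPM for the lower genes, against 13.8 CPM over all features. The rule selects on the DP level, so this difference is a description only.

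**Figure D1:**
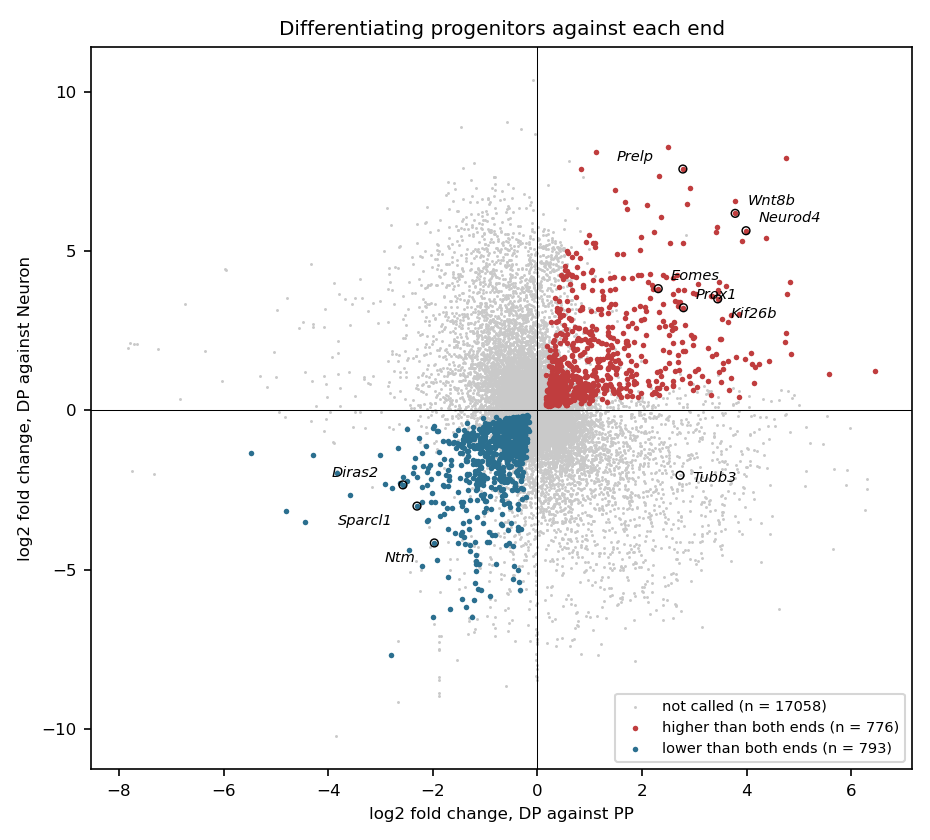
Log2 fold change of DP against PP (horizontal axis) and of DP against Neuron (vertical axis) for the 18627 features tested, each point a feature. The 776 genes called higher lie in the upper right and the 793 called lower in the lower left. Neurod4 and Wnt8b are far out on both axes, while Tubb3, which rises at each step, lies in the lower right.

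A plain contrast of DP with the mean of both ends called far more genes, 4636 higher (24.9%) and 3812 lower (20.5%), and these included genes that change in a single step. All 44 S phase genes and all 54 G2 and M phase genes were higher in that contrast. Their median log2 difference from PP was only -0.31 and 0.29, against 2.66 and 4.62 from Neuron. For this reason the genes below are those that passed against each end separately. Shares of lists given below stand beside 4.17% higher and 4.26% lower over all features tested.

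Among annotated genes with at least 5 CPM in DP, Neurod4 had the largest separation from both ends. Neurod4 (chr10:129705209-129717296, mm9), a proneural-type bHLH factor, stood at 2.98, 2.22 and 1.69 CPM (PP), 27.3, 43.9 and 36.8 (DP) and 1.22, 0.406 and 0.541 (Neuron). Every DP library was many times above every other library, with a fitted difference of 15.9-fold over PP and 50.2-fold over Neuron (log2 3.99 ± 0.29 and 5.65 ± 0.33 SE; larger adjusted p of both steps = 1.34e-06, edgeR). Kif26b (chr1:180459256-180862986, mm9), an atypical kinesin family protein, stood at 40.9, 26.2 and 21.0 CPM (PP), 287, 383 and 286 (DP) and 43.2, 17.8 and 23.2 (Neuron). It rose 10.9-fold over PP and 11.4-fold over Neuron (log2 3.45 ± 0.32 and 3.51 ± 0.33 SE; adjusted p = 8.46e-06, edgeR), and its PP and Neuron levels were not distinguished. Prox1 (chr1:191941917-191994559, mm9), a homeodomain factor that takes part in cell cycle exit, stood at 8.40, 11.8 and 9.80 CPM (PP), 69.5, 75.9 and 63.2 (DP) and 10.0, 7.17 and 4.97 (Neuron). The DP values lay close together and were 6.92-fold over PP and 9.38-fold over Neuron (log2 2.79 ± 0.20 and 3.23 ± 0.21 SE; adjusted p = 1.43e-06, edgeR).

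The 15 annotated genes with the largest separation upward, among those with at least 5 CPM in DP, were Neurod4, Wnt8b, Wnt3a, Rspo2, Kif26b, Rspo1, Dll4, Gm606, Gm16564, Thrb, Prox1, Prelp, Sema3g, Wnt2b and Sp5. Thrb, a receptor for thyroid hormone, stood at 1.56, 0.982 and 0.555 CPM (PP), 9.44, 14.3 and 11.3 (DP) and 2.15, 1.16 and 1.49 (Neuron). Sema3g, a secreted semaphorin, stood at 1.72, 1.18 and 1.71 CPM (PP), 7.98, 10.7 and 12.8 (DP) and 0.375, 0.142 and 0.309 (Neuron). Both therefore ran several-fold above their ends in every DP library. Prelp, a secreted leucine-rich repeat proteoglycan, stood at 2.50, 2.41 and 3.02 CPM (PP), 17.1, 20.3 and 17.2 (DP) and 0.117, 0.0813 and 0.0773 (Neuron), a difference of 6.87-fold over PP and 192-fold over Neuron. Gm16564 lies inside the span of Kif26b on chromosome 1, and no source used here gives the strand setting of the counting. Reads of the overlapping pair therefore cannot be told apart.

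**Figure D2:**
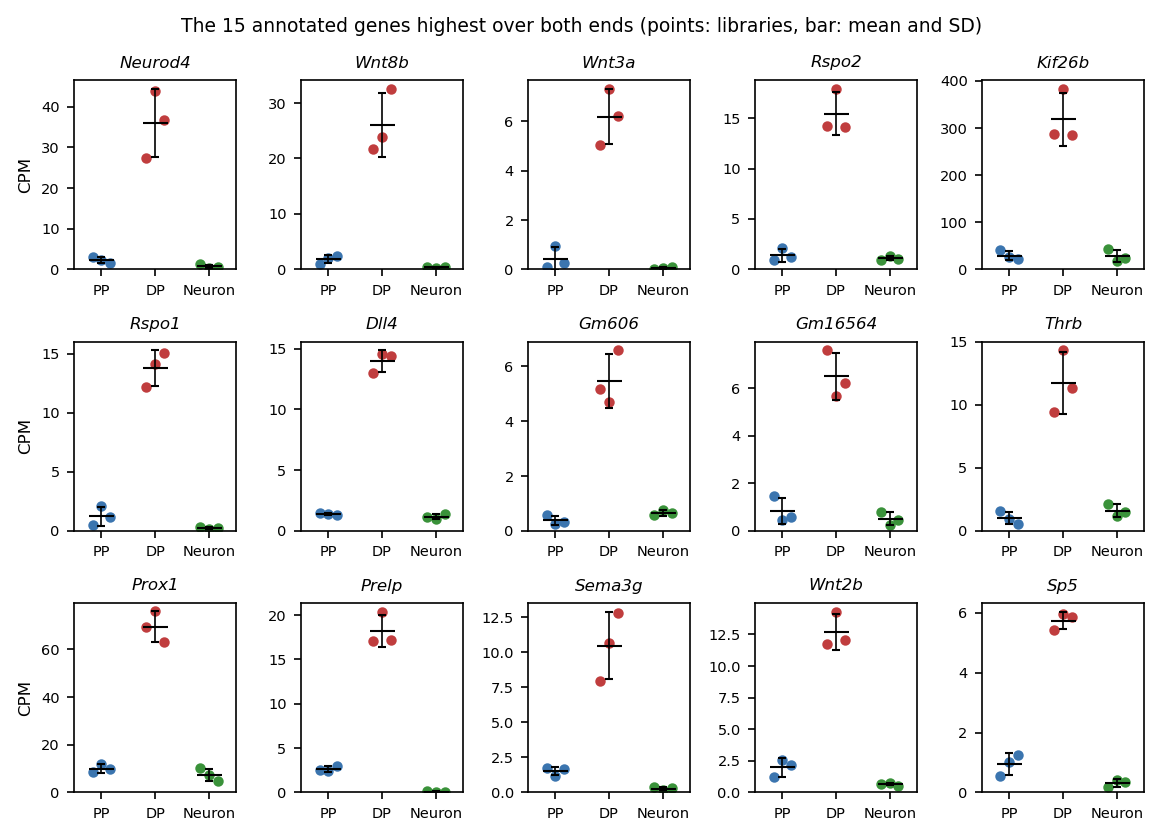
CPM (vertical axis, from 0) in each PP, DP and Neuron library for the 15 annotated genes with the largest separation upward. Points are libraries and bars the mean and SD of 3. In each panel the 3 DP points lie above the other 6, as the choice of these genes requires. For Neurod4 the lowest DP library is at 27.3 CPM and the highest other library at 2.98 CPM.

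Cells were sorted on reporters of Btg2 and Tubb3, so the levels of these genes describe the gate and do not check it. Btg2 stood at 409, 403 and 523 CPM (PP), 658, 850.2 and 1156 (DP) and 158, 154.6 and 194 (Neuron), and was higher in DP than in both ends (1.99-fold over PP and 5.26-fold over Neuron; adjusted p = 0.00106, edgeR), which the gate itself selects for. Tubb3 stood at 119.7, 82.4 and 61.4 CPM (PP), 533, 694 and 515 (DP) and 2474, 2589 and 2090 (Neuron) and rose at each step, so it was not called.

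Neurod4, Neurog1, Neurog2 and Hes6 were higher in DP than in both ends, and Neurod1, Neurod2 and Neurod6 were not called. Of 14 proneural and neuronal bHLH genes tested, 6 were called higher and 0 lower (42.9% against 4.17% of all features). The list's median log2 difference was 2.12 against PP and 0.36 against Neuron, beside -0.02 and 0.04 over all features. Neurog2, the main proneural factor of the dorsal cortex, stood at 364, 403 and 336.2 CPM (PP), 597, 865 and 806 (DP) and 57.3, 51.7 and 56.3 (Neuron). Its relative Neurog1 stood at 20.6, 18.8 and 17.3 CPM (PP), 44.0, 59.2 and 55.7 (DP) and 0.609, 0.345 and 0.335 (Neuron). Both were already present in PP, rose 2.06-fold and 2.81-fold, and were far lower in Neuron (larger adjusted p = 4.97e-05 and 6.31e-06, edgeR).

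Hes6, a bHLH protein that counteracts the Notch effector Hes1, stood at 114, 99.0 and 94.0 CPM (PP), 240.5, 281 and 289 (DP) and 87.4, 83.1 and 86.9 (Neuron), a rise of 2.64-fold over PP and 3.15-fold over Neuron (adjusted p = 6.1e-07, edgeR). Tcf12 and Tcf4 encode E proteins, the dimer partners of proneural factors. Tcf12 stood at 249.7, 228 and 215 CPM (PP), 306, 318 and 285 (DP) and 231, 202 and 206 (Neuron), and Tcf4 was 1.46-fold over PP and 1.16-fold over Neuron, a call lost in at least 1 alternative. Neurod1 stood at 10.1, 6.17 and 3.92 CPM (PP), 122, 182 and 152 (DP) and 207, 172 and 167.2 (Neuron), where DP and Neuron were not distinguished (adjusted p = 0.333, edgeR). Neurod2 and Neurod6, factors of postmitotic projection neurons, continued upward, Neurod2 from 276, 386 and 349 CPM in DP to 1006, 982 and 1001 in Neuron. Per kilobase of the gene length in the deposited tables, the mean DP levels were 339.7 CPM for Neurog2, 149 for Hes6, 31.9 for Neurog1 and 10.8 for Neurod4, so Neurod4 had the lowest level of these 4 though the widest separation.

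Proneural dimers bind short sites called E-boxes, so promoter windows of some members that rose with these factors are shown. Those printed were chosen for holding a match. The windows are the 250 bases before the RefSeq start of each gene on GRCm38.p6, read 5′ to 3′ on the gene's strand, with capitals marking a match to CAGCTG or to CAGATG on either strand. Hes6 (chr1:91414039-91414288, minus strand), Dll3 (chr7:28301786-28302035, minus strand) and Gadd45g (chr13:51846425-51846674, plus strand) hold CAGCTG, and Prox1 (chr1:190170828-190171077, minus strand) holds CAGATG.
Hes6: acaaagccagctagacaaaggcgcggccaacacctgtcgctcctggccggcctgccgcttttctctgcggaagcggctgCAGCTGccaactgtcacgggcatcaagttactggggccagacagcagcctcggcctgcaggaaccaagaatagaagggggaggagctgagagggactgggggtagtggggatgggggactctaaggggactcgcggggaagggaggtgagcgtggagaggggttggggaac
Dll3: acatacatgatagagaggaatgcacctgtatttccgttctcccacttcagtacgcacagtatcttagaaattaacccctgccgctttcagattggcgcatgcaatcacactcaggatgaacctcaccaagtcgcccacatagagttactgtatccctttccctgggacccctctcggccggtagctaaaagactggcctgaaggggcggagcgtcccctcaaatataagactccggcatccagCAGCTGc
Gadd45g: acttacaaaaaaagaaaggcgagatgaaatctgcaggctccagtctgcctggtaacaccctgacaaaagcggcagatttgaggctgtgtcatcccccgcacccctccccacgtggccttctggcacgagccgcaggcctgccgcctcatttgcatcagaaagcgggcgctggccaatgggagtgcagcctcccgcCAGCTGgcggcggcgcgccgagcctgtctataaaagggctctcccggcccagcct
Prox1: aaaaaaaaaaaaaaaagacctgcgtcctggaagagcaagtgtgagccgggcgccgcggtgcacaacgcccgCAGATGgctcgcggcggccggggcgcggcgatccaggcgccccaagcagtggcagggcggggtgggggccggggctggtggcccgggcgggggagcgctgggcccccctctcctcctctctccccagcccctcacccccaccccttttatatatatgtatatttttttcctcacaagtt
In Dll3 the match begins 7 bases before the start, and in Gadd45g, Hes6 and Prox1 it begins 55, 171 and 179 bases before it. Hes6 and Prox1 have a further window each, of which that of Hes6 also holds CAGCTG and that of Prox1 neither motif. Of the windows of Dll1, 1 holds CAGCTG and the other neither motif. The windows of Neurod4, Kif26b and Dll4 hold neither, which says only that these letters are not in those windows. Genes were matched by symbol, 496 of the higher and 514 of the lower genes. CAGCTG was present in 15.5% of 664 windows of genes called higher, 11.8% of 722 windows of genes called lower and 12.4% of 13686 windows of all features tested. CAGATG was present in 13.6%, 12.6% and 10.3%. These matches are a description of letters and show no binding.

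The Delta genes Dll1, Dll3 and Dll4 were higher in DP than in both ends, and Notch1 was not called. Of 18 ligands and ligand regulators tested, 6 were higher and 1 lower (33.3% and 5.56%). Dll1, the chief Delta ligand of cortical progenitors, stood at 186, 190.3 and 180.2 CPM (PP), 387, 400.5 and 430.4 (DP) and 246, 186 and 199 (Neuron) (2.19-fold over PP and 1.93-fold over Neuron; adjusted p = 4.58e-06, edgeR). Dll3, a Delta-like protein that does not act as an activating ligand in trans, stood at 9.91, 5.23 and 4.29 CPM (PP), 37.1, 39.5 and 39.9 (DP) and 23.5, 16.9 and 20.6 (Neuron). Dll4, better known from blood vessels, stood at 1.45, 1.41 and 1.27 CPM (PP), 13.0, 14.6 and 14.4 (DP) and 1.15, 0.996 and 1.36 (Neuron), a rise of 10.2-fold over PP and 12-fold over Neuron (adjusted p = 1.16e-07, edgeR).

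The 13 endothelial genes summed to 16.2 to 39.3 CPM in PP, 13.3 to 15.7 in DP and 4.51 to 7.67 in Neuron. Which cells account for the rise of Dll4 was not tested. Mfng, a Fringe enzyme that glycosylates Notch receptors, stood at 74.1, 55.1 and 53.8 CPM (PP), 216, 270.3 and 262 (DP) and 44.6, 24.8 and 31.8 (Neuron) (4.09-fold over PP and 7.39-fold over Neuron). Cbfa2t2, a corepressor gene, stood at 150, 135 and 126 CPM (PP), 309, 421 and 429.5 (DP) and 157.2, 153 and 170.0 (Neuron), and Mib1, the ubiquitin ligase needed for ligand activity, was 1.19-fold over PP and 1.22-fold over Neuron, a call lost in at least 1 alternative setting. Dner, a Delta-like neuronal protein, was the member called lower, at 16.6, 16.4 and 13.8 CPM (PP), 11.9, 13.3 and 10.9 (DP) and 165, 163 and 156.6 (Neuron). Its call against PP was also lost in at least 1 alternative.

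Of 21 Notch receptors, mediators and targets, 3 were higher (14.3%, beside 4.17% of all features) and 0 lower. Ncstn, a subunit of the secretase that cleaves Notch, was 1.53-fold over PP and 1.21-fold over Neuron (adjusted p = 0.00772, edgeR). Rbpj, the DNA-binding partner of cleaved Notch, was 1.27-fold over PP and 1.47-fold over Neuron, though its libraries overlapped in the single-read runs alone. Hey2, a Notch effector, was 1.67-fold over PP and 18.4-fold over Neuron, a call that did not hold once L222, L223 and L224 were left out as a set (adjusted p = 0.0964, edgeR). Notch1 itself stood at 1417, 1523 and 1401 CPM (PP), 1141, 889.9 and 844 (DP) and 39.3, 18.3 and 14.1 (Neuron), where DP and PP were not distinguished (adjusted p = 0.109, edgeR). Hes1 stood at 98.5, 114 and 132 CPM (PP), 75.6, 48.3 and 56.8 (DP) and 0.702, 0.752 and 0.541 (Neuron) and fell at each step.

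Of 43 intermediate progenitor genes, 24 were called higher and 0 lower (55.8%), the largest share of any list with at least 10 members tested. At an unadjusted p under 0.05 and by DESeq2 the count of lower members was also 0, as it was for the bHLH list. This list holds Btg2, Neurod4 and Kif26b, and it was drawn up with earlier results of these data known. Eomes, the T-box factor that defines these cells, stood at 287, 232 and 186 CPM (PP), 950.0, 1294 and 1242 (DP) and 114, 53.4 and 77.6 (Neuron), 4.95-fold over PP and 14.2-fold over Neuron (adjusted p = 2.31e-05, edgeR). Per kilobase it reached 279.7 CPM in DP, below Neurog2. Mfap4, a microfibril-associated protein, stood at 23.5, 19.3 and 16.5 CPM (PP), 175, 233 and 225 (DP) and 78.3, 44.0 and 62.6 (Neuron). Its Neuron level was above that of PP, whereas for Eomes PP was above Neuron. Pax6 and Tbr1, the factors that precede and follow Eomes, stood at 398, 341 and 361 and 115, 173 and 151 CPM in DP, each between its PP and Neuron levels.

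Part of the cell cycle exit list was also highest in DP. Of 25 tested, 5 were higher and 0 lower (20%): Prox1, Gadd45g, Btg2, Gadd45a and Cdkn1b. Btg2 is a sort gene, so its place here describes the gate. Gadd45g, a growth arrest and stress response protein, stood at 55.0, 85.0 and 103 CPM (PP), 196, 350.3 and 416 (DP) and 85.9, 101 and 104 (Neuron), with library L223 the lowest of DP and still above the other 6. Gadd45a of the same family stood at 7.06, 6.64 and 7.33 CPM (PP), 16.0, 20.7 and 22.7 (DP) and 9.20, 8.47 and 9.19 (Neuron). Cdkn1b, the inhibitor p27, stood at 242, 249 and 229.6 CPM (PP), 297, 321 and 308 (DP) and 217, 208 and 210.2 (Neuron), a small but even rise of 1.28-fold over PP and 1.46-fold over Neuron (adjusted p = 0.000674, edgeR). Cdkn1c, the inhibitor p57, rose 11.5-fold over PP, to 107, 111 and 105 CPM, and was not distinguished from Neuron at 126, 97.9 and 114 CPM.

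Among 22 delamination and CoREST genes, which serve the departure of cells from the ventricular surface, 4 were higher and 0 lower (18.2%). Insm1, a zinc finger factor that promotes basal progenitor formation, stood at 135, 153 and 121 CPM (PP), 283, 383 and 344 (DP) and 182, 208 and 194 (Neuron) (2.48-fold over PP and 1.73-fold over Neuron; adjusted p = 7.69e-05, edgeR). Akna, a centrosomal protein of delaminating cells, stood at 66.9, 49.2 and 48.5 CPM (PP), 154.6, 172 and 188 (DP) and 57.7, 36.7 and 38.8 (Neuron). Rcor2, a CoREST corepressor, stood at 227, 192 and 206 CPM (PP), 579, 714 and 768 (DP) and 521, 469.8 and 506 (Neuron), with Neuron well above PP. Cdh1, or E-cadherin, was also called but remained under 0.4 CPM in every library. The alternative filter of 1 CPM in 3 libraries left it untested. The count was 6 without DP library L223, and 7 without Neuron library L224 or without L222, L223 and L224 together. Snai2 stood at 0.235, 0.213 and 0.289 CPM in DP, and Scrt2, a repressor of the Snail superfamily, rose to 249, 365 and 296 CPM and was not distinguished from Neuron (adjusted p = 0.111, edgeR).

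Of 54 G2 and M phase genes, 7 were called higher (13%, beside 4.17% of all features), and 20 lay above both ends without overlap, as did 5.96% of all features. Of 44 S phase genes 1 was called (2.27%). The G2 and M phase count depended on single libraries: it was 3 without PP library L222 or L355 or DP library L223 or L394, 10 without DP library L356, 11 without L222, L223 and L224 together and 19 without Neuron library L224. G2e3 stood at 134, 154.7 and 158 CPM (PP), 213, 210.2 and 232 (DP) and 137, 139 and 137 (Neuron), and Bub3, a spindle checkpoint protein, at 93.0, 105 and 98.6 CPM (PP), 153, 138 and 127 (DP) and 81.2, 81.9 and 77.0 (Neuron). Kif20b, a mitotic kinesin, stood at 54.0, 53.1 and 62.7 CPM (PP), 87.4, 66.5 and 84.0 (DP) and 10.6, 9.16 and 9.84 (Neuron). For Bub3 and G2e3 the ends were alike within 1.5-fold, whereas Kif20b was 8.05-fold above Neuron and 1.4-fold above PP. Hmmr, Kifc1, Aurka and Kif18a were the other called members, and each lost the call in at least 1 alternative. Among these was the one without DP library L223 (adjusted p = 0.0783, 0.0892, 0.0955 and 0.115, edgeR). E2f1, a regulator of S phase entry, stood at 85.0, 85.9 and 93.4 CPM (PP), 104, 101 and 109 (DP) and 15.0, 15.5 and 15.1 (Neuron). Mki67, a marker of dividing cells, stood at 1155, 1026 and 1031 CPM (PP), 1517, 1003 and 1073 (DP) and 66.3, 21.6 and 19.4 (Neuron) and did not separate DP from PP. Among 15 G1 genes Cdk4 and Cdc25a were higher and Mycn lower, with Mycn at 201, 215 and 226 CPM (PP), 184, 156.2 and 175 (DP) and 227, 227 and 239.9 (Neuron).

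Wnt ligands, and R-spondins, which amplify Wnt signals, were also among the genes most separated from both ends. Of 36 Wnt and hem genes tested, 12 were higher and 1 lower (33.3% and 2.78%), with a list median of 0.38 against PP and 1.8 against Neuron on the log2 scale. Wnt8b stood at 1.05, 2.14 and 2.40 CPM (PP), 21.7, 23.9 and 32.5 (DP) and 0.375, 0.305 and 0.386 (Neuron) (13.7-fold over PP and 73.3-fold over Neuron; adjusted p = 6.86e-07, edgeR). Wnt3a stood at 0.107, 0.961 and 0.246 CPM (PP), 5.06, 7.30 and 6.199 (DP) and 0.0234, 0.0610 and 0.103 (Neuron), and Wnt2b at 1.18, 2.58 and 2.18 CPM (PP), 11.7, 14.3 and 12.1 (DP) and 0.702, 0.711 and 0.541 (Neuron). All 3 are known from the cortical hem, a signalling centre at the medial edge of the cortex, and all 3 were at or under 2.6 CPM at both ends. Wnt9a was 6.46-fold over PP and 10.6-fold over Neuron, but averaged under 5 CPM in DP and so was not ranked among the 15 genes above.

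Rspo2 stood at 0.886, 2.09 and 1.19 CPM (PP), 14.2, 17.9 and 14.2 (DP) and 0.936, 1.34 and 1.08 (Neuron) and Rspo1 at 0.483, 2.09 and 1.19 CPM (PP), 12.2, 14.2 and 15.1 (DP) and 0.328, 0.183 and 0.258 (Neuron). The 2 R-spondins had similar DP levels, and Rspo1 was lower than Rspo2 in every Neuron library. Rspo3 took another course, with 18.7, 19.9 and 16.2 CPM in DP and 51.6, 62.3 and 56.0 in Neuron. Lmx1a, a homeodomain factor of hem and choroid tissue, stood at 0.967, 0.577 and 1.15 CPM (PP), 6.80, 6.32 and 5.84 (DP) and 1.52, 1.81 and 1.88 (Neuron), 7.03-fold over PP and 3.64-fold over Neuron (adjusted p = 7.88e-06, edgeR).

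Receptors and targets of the pathway were also called. Fzd10 and Fzd1, Wnt receptors, were 3.24-fold over PP and 4.49-fold over Neuron, and 2.42-fold over PP and 1.47-fold over Neuron. Axin2, a feedback target of canonical Wnt signalling, stood at 66.8, 75.8 and 82.4 CPM (PP), 118, 101 and 113 (DP) and 40.3, 39.5 and 38.8 (Neuron) (1.48-fold over PP and 2.80-fold over Neuron; adjusted p = 0.000282, edgeR). Lef1, a nuclear effector, stood at 18.3, 23.8 and 25.7 CPM (PP), 41.5, 31.9 and 34.7 (DP) and 18.3, 16.4 and 19.1 (Neuron). The Wnt target Sp5 stood at 0.537, 1.02 and 1.25 CPM (PP), 5.42, 5.97 and 5.86 (DP) and 0.187, 0.427 and 0.335 (Neuron), several-fold above both ends. Wnt7b, the main Wnt of cortical neurons, rose at each step and Fzd8 fell at each step, so neither was called. Wnt4 was the member called lower, 3.14-fold under PP and 2.94-fold under Neuron, but remained under 1 CPM in every library. The alternative filter of 1 CPM in 3 libraries left it untested.

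**Figure D3:**
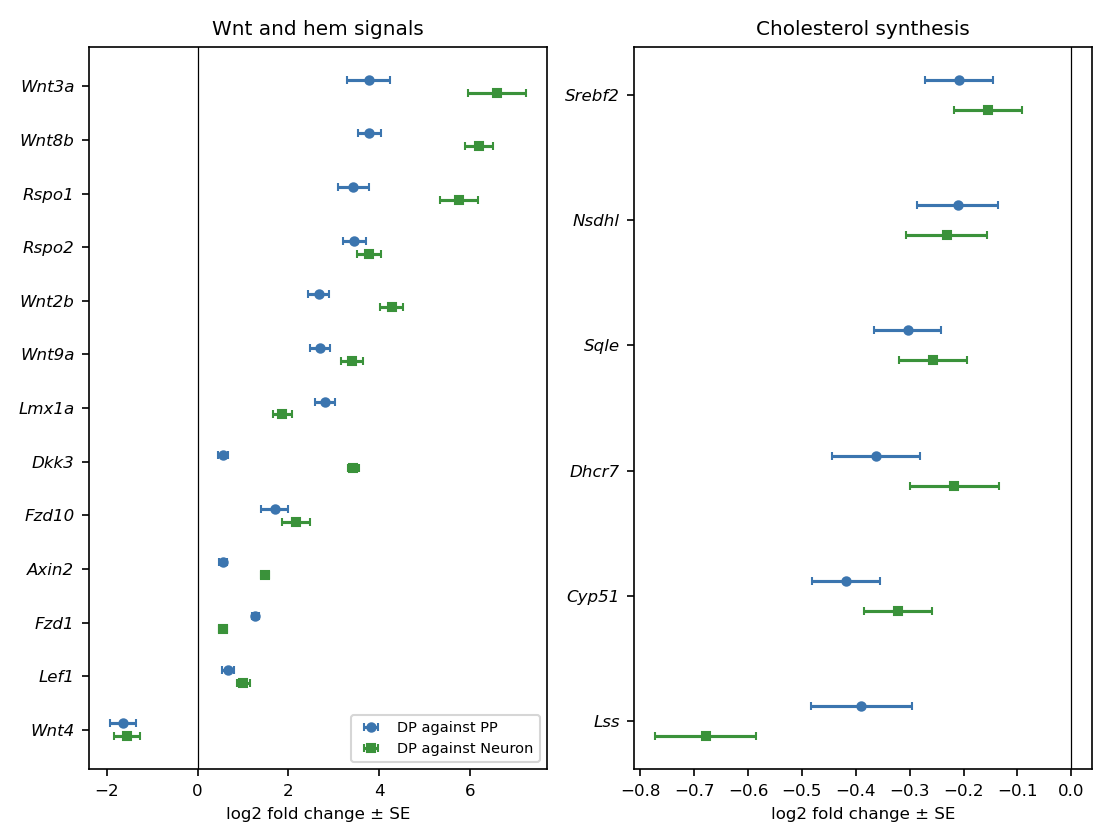
Log2 fold change of DP against PP (circles) and against Neuron (squares), with its SE, for the called members of the Wnt and hem list (left) and 6 called members of the cholesterol synthesis list (right). The Wnt genes spread from 0.56 to 6.59 upward apart from Wnt4. The 6 cholesterol genes drawn lie below 0 and none beyond -0.68, and the horizontal scales of the panels differ.

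Markers of neighbouring medial tissue were examined beside the Wnt genes. Choroid plexus genes, 10 in all, summed to 46.7 to 104 CPM in PP, 46.5 to 111 in DP and 15.4 to 17.8 in Neuron, and in DP the highest sum was in L223. Of 9 tested, Msx1, Otx2, Lmx1a and Folr1 were higher (44.4%, beside 4.17% of all features) and 0 lower. Otx2, a homeobox factor of the dorsal midline, stood at 4.30, 3.29 and 1.91 CPM (PP), 7.204, 8.12 and 9.43 (DP) and 0.164, 0.488 and 0.747 (Neuron). Msx1, another midline factor, stood at 3.86, 2.34 and 2.56 CPM in DP and at 1.69, 0.812 and 1.52 in PP. Ttr, a highly abundant choroid transcript, was not called, with 52.8, 7.44 and 4.97 CPM in DP beside 55.3, 14.1 and 28.7 in PP. Within DP, L223 held the highest value of Ttr, Msx1, Lmx1a and Folr1 and the lowest of Otx2. Among called Wnt genes, Wnt8b, Wnt3a and Wnt2b were lowest there, and Axin2 and Lef1 highest. The part of choroid cells in the Wnt pattern was not tested. Folr1 lost its call in several alternatives, among them without DP library L223 (adjusted p = 0.168, edgeR).

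Cajal-Retzius cells, early neurons that arise partly from the hem, had their markers highest in Neuron. The 16 genes summed to 38.1 to 41.3 CPM in PP, 154 to 191 in DP and 1010 to 1160 in Neuron. Of 15 tested, Ebf2 was higher and A930038C07Rik, which gene identifiers tie to Ndnf, was lower (6.67% each, beside 4.17% and 4.26% of all features). Ebf2 stood at 0.671, 0.406 and 0.431 CPM (PP), 10.2, 6.97 and 9.53 (DP) and 4.03, 3.01 and 3.27 (Neuron). A930038C07Rik stood at 6.28, 4.14 and 3.21 CPM (PP), 1.44, 1.12 and 1.16 (DP) and 3.40, 5.16 and 3.32 (Neuron). Reln stood at 28.9, 37.9 and 29.0 CPM in DP and 849.9, 845 and 742 in Neuron. The part of cells from the hem in the Wnt pattern was not tested.

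Red blood cell genes summed to 8370 to 15300 CPM in PP, 19.4 to 126 in DP and 14.4 to 16.7 in Neuron. Pericyte genes summed to a median of 191 CPM in DP, between 474 in PP and 6.99 in Neuron, and microglia genes to 21 CPM, between 28.4 and 11.9. None of the 11 endothelial, 7 pericyte, 13 microglia, 13 red blood cell and 5 oligodendrocyte precursor genes tested was called in either direction by edgeR or DESeq2, and at an unadjusted p under 0.05 with no overlap 1 oligodendrocyte precursor gene was higher. Without DP library L223, 2 pericyte genes were called lower, without PP library L393 1 endothelial gene was called higher, and without PP library L222 2 oligodendrocyte precursor genes were. Of 6 meningeal genes Dcn was called higher (16.7%), at 2.73, 2.98 and 2.36 CPM in DP, a call that at least 1 alternative removed. Of 23 ventral and interneuron genes Prox1 was higher and Maf lower (4.35% each, beside 4.17% and 4.26% of all features), the latter in all but the single-read runs. The summed ventral markers were 504, 404 and 299 CPM in L223, L356 and L394.

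Zinc finger and related factors were the next group by share, with 6 of 24 higher (25%) and 0 lower. Myt1, a factor that represses Notch targets during neurogenesis, stood at 65.9, 47.8 and 40.9 CPM (PP), 322, 433 and 409 (DP) and 247, 191 and 205 (Neuron) (7.54-fold over PP and 1.81-fold over Neuron; adjusted p = 0.000711, edgeR). Glis3, a Krüppel-like factor, stood at 3.71, 2.99 and 2.53 CPM (PP), 11.9, 14.5 and 16.2 (DP) and 1.05, 0.955 and 1.00 (Neuron). Zic1 stood at 51.8, 70.0 and 65.3 CPM (PP), 128, 147 and 135 (DP) and 46.5, 64.6 and 46.6 (Neuron), with ends that were not distinguished. Foxn4 and Ikzf2 were also called higher, each with a call that at least 1 alternative removed, and without DP library L356 the count was 3.

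Among 38 chromatin regulators 4 were higher and 1 lower (10.5% and 2.63%, beside 4.17% and 4.26% of all features). Ezh2, the methyltransferase of Polycomb complex 2, averaged 318 ± 3.50 CPM (SD, n = 3) in DP, beside 223.7 ± 5.23 in PP and 193 ± 9.52 in Neuron (1.42-fold over PP and 1.65-fold over Neuron; adjusted p = 4.84e-05, edgeR). The remodeller Chd7 stood at 367, 357.4 and 349 CPM (PP), 605, 600.1 and 634 (DP) and 116, 92.2 and 97.2 (Neuron). Dpf3, a subunit of neuronal BAF complexes, stood at 0.913, 1.34 and 1.09 CPM (PP), 0.353, 0.542 and 0.458 (DP) and 9.18, 8.74 and 7.73 (Neuron) and was the lower member, while Dpf2 of the same family was 1.18-fold over PP and 1.48-fold over Neuron. Of 31 splicing and RNA-binding genes, Elavl2, Elavl4 and Nova1 were higher (9.68%), the last in most but not all alternatives. Elavl2 stood at 89.2, 68.2 and 58.5 CPM (PP), 318, 454 and 406 (DP) and 246, 241 and 239 (Neuron) and Elavl4 at 66.99, 54.7 and 46.0 CPM (PP), 223.8, 315.9 and 265 (DP) and 202, 169 and 179.8 (Neuron). Both stabilise neuronal transcripts, and for both Neuron was also above PP.

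Of 20 named long non-coding RNAs, Rmst and Miat were higher (10%, beside 4.17% of all features) and 0 lower. Rmst, a partner of Sox2 in neurogenesis, stood at 3.84, 5.83 and 8.69 CPM (PP), 30.8, 34.0 and 41.3 (DP) and 6.62, 6.32 and 7.55 (Neuron) (5.73-fold over PP and 5.19-fold over Neuron; adjusted p = 6.6e-06, edgeR). Miat, an abundant nuclear RNA, stood at 1161, 922 and 1042 CPM (PP), 3342, 3573 and 4596 (DP) and 2158, 1988 and 2152 (Neuron). Both exceeded every other library in all 3 DP libraries. Per kilobase Miat reached 438 CPM in DP and Rmst 6.87.

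Genes that dipped in DP included genes known from differentiated neurons that were nevertheless higher in PP than in DP. The 15 annotated genes with the largest separation downward, among those with at least 5 CPM at both ends, were Diras2, Sparcl1, Zcchc12, Camk1d, Adamts18, Ntm, Ptp4a3, Myo16, Schip1, Sybu, Sema3f, Csdc2, Tox2, Pde4b and St8sia1. Diras2, a small GTPase of the Ras family, stood at 11.8, 14.1 and 10.8 CPM (PP), 2.59, 1.88 and 1.71 (DP) and 8.80, 11.3 and 11.1 (Neuron), 5.94-fold under PP and 5.06-fold under Neuron (log2 -2.57 ± 0.18 and -2.34 ± 0.18 SE; adjusted p = 1.01e-06, edgeR). Camk1d, a calcium and calmodulin dependent kinase, stood at 39.4, 38.4 and 32.4 CPM (PP), 10.2, 8.43 and 8.37 (DP) and 38.6, 43.3 and 38.1 (Neuron). For both genes PP and Neuron were not distinguished, and DP fell 4-fold or more below each.

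Adamts18, a secreted metalloprotease, stood at 73.5, 85.3 and 98.4 CPM (PP), 22.3, 19.1 and 22.3 (DP) and 120.5, 124 and 136 (Neuron) (4.04-fold under PP and 5.98-fold under Neuron; adjusted p = 2.95e-07, edgeR). Sparcl1, a secreted matricellular protein, stood at 21.4, 20.2 and 19.5 CPM (PP), 4.97, 3.85 and 3.57 (DP) and 35.9, 36.5 and 27.0 (Neuron). St8sia1, the enzyme that makes ganglioside GD3, stood at 66.2, 71.0 and 53.6 CPM (PP), 19.4, 22.7 and 19.7 (DP) and 169, 177 and 169 (Neuron). These 3 were higher in Neuron than in PP, and so was Ntm, the adhesion protein neurotrimin, at 18.1, 13.1 and 12.8 CPM (PP), 4.54, 3.84 and 2.80 (DP) and 70.3, 73.2 and 57.1 (Neuron). Schip1, a cytoskeletal adaptor, stood at 101, 103 and 83.7 CPM (PP), 31.6, 18.9 and 17.3 (DP) and 74.9, 87.8 and 75.8 (Neuron), and Pde4b, a phosphodiesterase of cyclic AMP, at 37.6, 41.7 and 33.8 CPM (PP), 14.3, 11.3 and 10.5 (DP) and 39.8, 42.5 and 35.4 (Neuron). DP library L223 was the highest of DP for both and still well below the other 6.

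**Figure D4:**
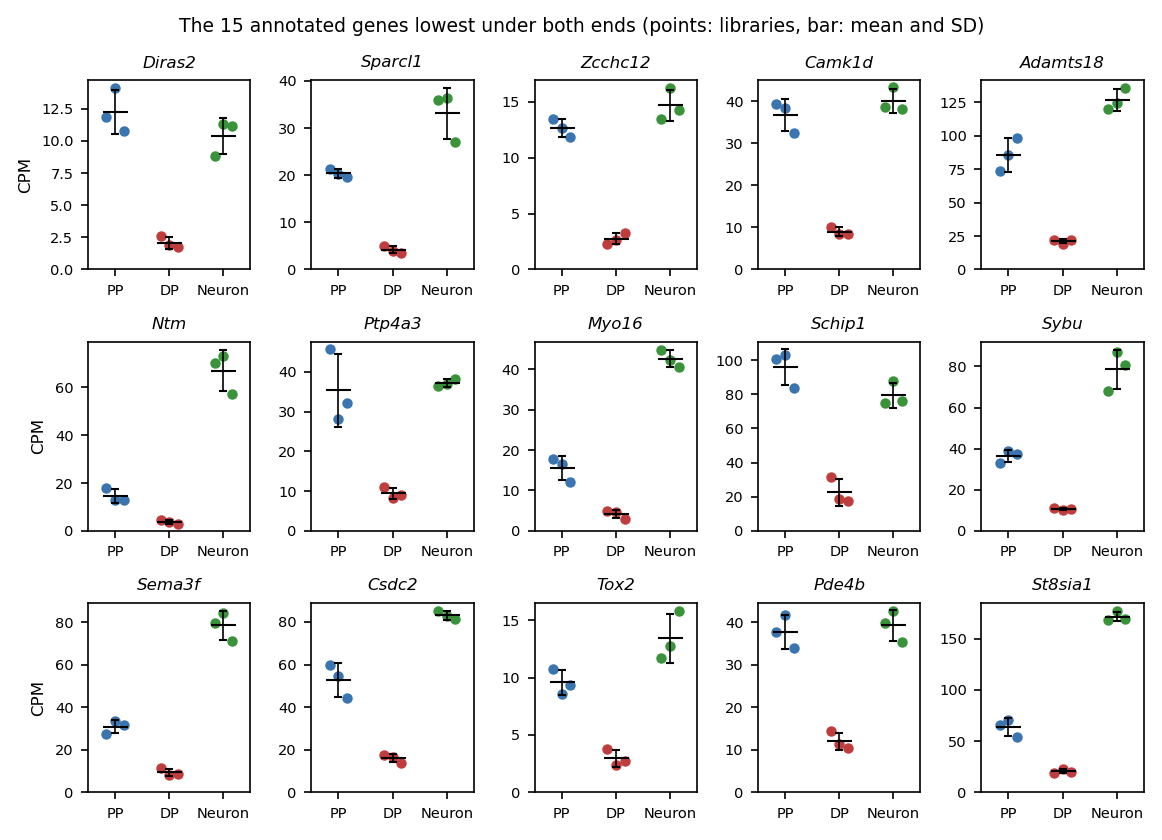
CPM (vertical axis, from 0) in each PP, DP and Neuron library for the 15 annotated genes with the largest separation downward. Points are libraries and bars the mean and SD of 3. The 3 DP points lie below the other 6 in each panel, as the choice of these genes requires. Adamts18 falls to 19.1 to 22.3 CPM in DP, from at least 73.5 CPM elsewhere.

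Summed, the pan-neuronal markers moved the other way between PP and DP. Their sum was 1560 to 2090 CPM in PP and 5120 to 6540 in DP, and Dcx, a microtubule protein of young neurons, stood at 88.4, 42.6 and 28.3 CPM in PP and 609, 885 and 747 in DP. Of 30 tested, Elavl4 was called higher and Ncam1 lower (3.33% each, beside 4.17% and 4.26% of all features). Ncam1 stood at 252, 257 and 244 CPM (PP), 227, 186 and 185 (DP) and 715, 738 and 620 (Neuron), a call lost in at least 1 alternative. Of 32 radial glia genes 28 were higher than the mean of the ends, and the list's median was -1.01 against PP and 3.72 against Neuron on the log2 scale. Against each end separately, 1 of them was called higher and 1 lower (3.12% each). Ptprz1, a receptor phosphatase of radial glia, was the radial glia gene called lower, at 838, 838 and 676 CPM (PP), 311.5, 244 and 207 (DP) and 471, 579 and 505 (Neuron) (3.08-fold under PP and 2.04-fold under Neuron; adjusted p = 5.27e-05, edgeR). Lhx2, a homeobox factor of cortical identity, was the one called higher, at 602, 661 and 629 CPM (PP), 900.1, 824 and 730.1 (DP) and 365, 333 and 298 (Neuron).

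Of 38 migration genes, 2 were higher (5.26%) and 3 lower (7.89%), beside 4.17% and 4.26% of all features. Genes of Reelin signalling were among the called members and went in both directions. Reelin is the secreted guide of neuronal layering, Vldlr and Lrp8 are its receptors and Dab1 is their intracellular adaptor. Vldlr stood at 44.9, 50.0 and 38.1 CPM (PP), 20.6, 23.3 and 21.7 (DP) and 131, 141 and 129 (Neuron) (2.03-fold under PP and 6.11-fold under Neuron; adjusted p = 9.67e-06, edgeR). Dab1 stood at 176, 170.2 and 161 CPM (PP), 102, 69.3 and 76.2 (DP) and 415, 439 and 396 (Neuron), 2.05-fold under PP and 5.05-fold under Neuron. Lrp8 went the opposite way, at 268, 233 and 212 CPM (PP), 727, 907 and 876 (DP) and 671, 598 and 569 (Neuron) (3.52-fold over PP and 1.37-fold over Neuron; adjusted p = 0.00325, edgeR). Cxcl12, a chemokine that attracts migrating neurons, stood at 7.97, 4.96 and 12.3 CPM (PP), 47.8, 71.4 and 70.0 (DP) and 37.5, 21.8 and 30.4 (Neuron), and Flrt2, an adhesion protein, was 1.29-fold under PP and 8.51-fold under Neuron.

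Ion channel and receptor genes were called in both directions, 5 higher and 5 lower of 49 (10.2% each, beside 4.17% and 4.26% of all features). Grin2b, an NMDA receptor subunit, stood at 7.14, 7.22 and 5.40 CPM (PP), 2.21, 3.54 and 2.85 (DP) and 117, 142 and 111 (Neuron) and Grik1, a kainate receptor subunit, at 7.33, 9.16 and 7.75 CPM (PP), 4.78, 2.79 and 4.05 (DP) and 7.89, 8.25 and 12.6 (Neuron). The dip of Grin2b below PP was 2.27-fold and small beside its later rise, whereas Grik1 had ends that were not distinguished. Tacr1, the receptor of substance P, rose instead and stood at 2.79, 2.18 and 2.36 CPM (PP), 5.58, 6.37 and 8.97 (DP) and 0.164, 0.224 and 0.309 (Neuron). Chrna3, a nicotinic receptor subunit, stood at 1.61, 1.13 and 1.09 CPM (PP), 5.51, 7.44 and 7.72 (DP) and 2.81, 2.68 and 2.73 (Neuron). Sstr2, Htr3a and Grik2 were the other members called higher, and Kcnh7 and Gria3 were among the others called lower.

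Of 46 axon guidance genes, 4 were called lower (8.7%, beside 4.26% of all features) and 1 higher (2.17%, beside 4.17%). Against the mean of the ends 20 were higher and 13 lower. Sema4d, a membrane semaphorin, stood at 34.3, 31.4 and 33.4 CPM (PP), 20.0, 15.7 and 17.5 (DP) and 111, 115 and 116 (Neuron), and Sema6a at 56.8, 53.4 and 55.5 CPM (PP), 40.02, 38.6 and 35.2 (DP) and 59.8, 64.8 and 59.5 (Neuron). Efnb2, an ephrin, was 1.35-fold under PP and 2.00-fold under Neuron (adjusted p = 0.00345, edgeR). Slit2, a repellent ligand, was the member called higher, at 52.5, 58.1 and 58.4 CPM (PP), 125, 98.8 and 108 (DP) and 37.2, 35.8 and 39.3 (Neuron). The secreted Sema3f of the 15 most separated genes dipped as the membrane semaphorins did, from 27.5, 33.8 and 31.6 CPM in PP to 11.3, 8.12 and 8.76 in DP, while Sema3g rose.

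Enzymes of cholesterol synthesis formed the largest dipping list by share. Of 21 tested, 7 were lower (33.3%) and 0 higher, and 14 were lower than the mean of the ends with 0 higher. The median log2 difference was -0.28 against PP and -0.22 against Neuron, beside -0.02 and 0.04 over all features. Cyp51, the lanosterol demethylase, averaged 169 ± 6.97 CPM (SD, n = 3) in PP, 127 ± 3.28 in DP and 158 ± 8.02 in Neuron. Sqle, the squalene epoxidase, stood at 149.9, 146 and 143 CPM (PP), 126, 112 and 119 (DP) and 145, 145 and 136 (Neuron). Lss, the lanosterol synthase, stood at 95.6, 104 and 117 CPM (PP), 73.0, 80.8 and 87.9 (DP) and 118, 134 and 134 (Neuron), 1.31-fold under PP and 1.60-fold under Neuron (adjusted p = 0.00602, edgeR).

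The count of 7 was 4 in the single-read runs, without a filter on low reads, without DP library L356 and without each of the Neuron libraries in turn, and 5 without each of the other libraries in turn. Srebf2, the transcription factor of the pathway, was 1.15-fold under PP and 1.11-fold under Neuron, and Srebf2, Dhcr7 and Nsdhl each lost the call in at least 1 alternative. Glycolysis genes numbered 2 lower of 22 (9.09%, beside 4.26% of all features). Hk1 stood at 49.0, 46.7 and 38.4 CPM (PP), 33.7, 33.6 and 25.8 (DP) and 138, 154 and 129 (Neuron). The other was Slc2a3, a neuronal glucose transporter, which lost its call without PP library L355 (adjusted p = 0.051, edgeR). Of 30 oxidative phosphorylation genes Atp5g1 was lower (3.33%), and at least 1 alternative removed it. Of 36 cytosolic ribosomal protein genes and 13 mitochondrially encoded genes, 0 were called in either direction by edgeR or DESeq2, and 1 ribosomal gene was lower at an unadjusted p under 0.05. By the contrast with the mean of the ends, 3 ribosomal genes were higher and 2 lower.

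**Figure D5:**
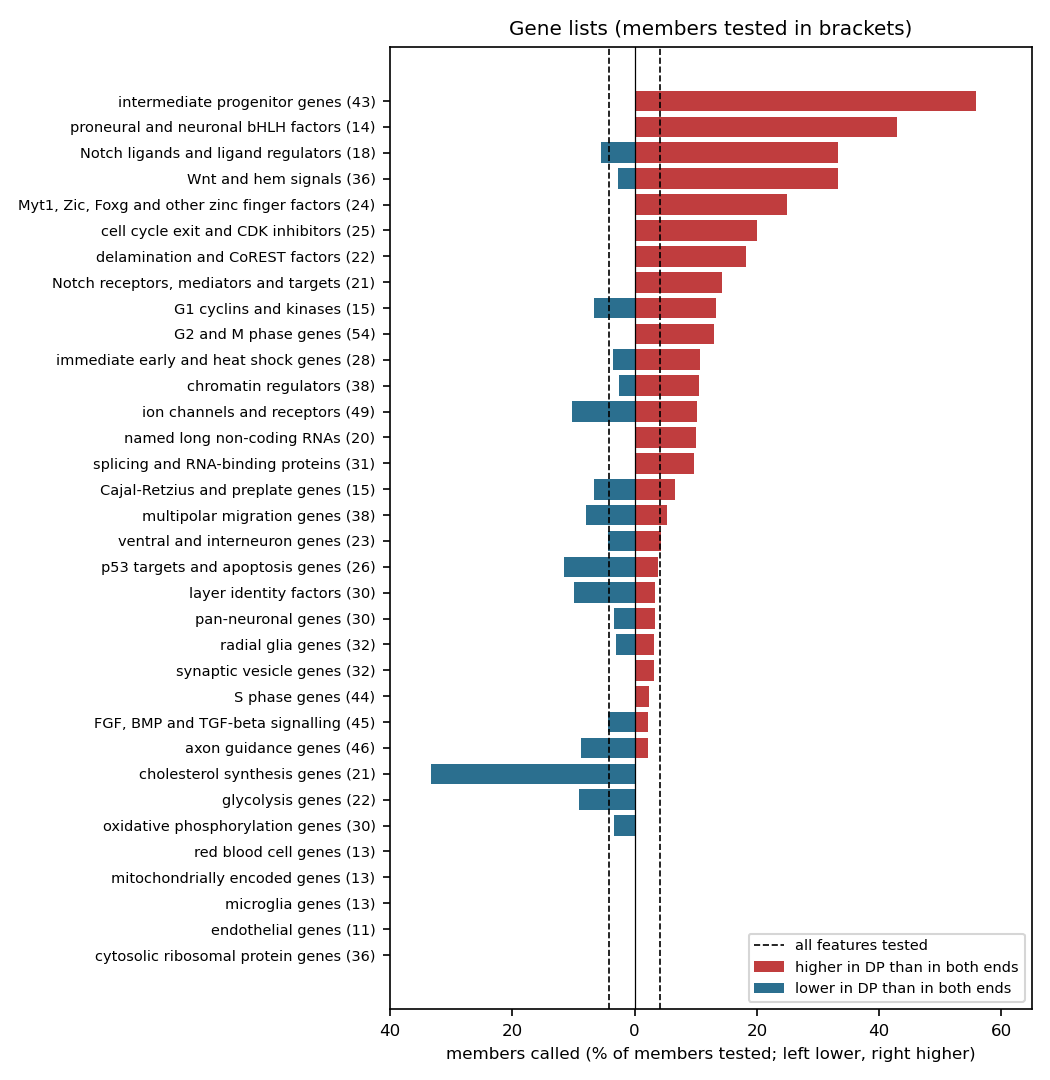
Share of the members tested that were called higher (right) or lower (left) in DP than in both ends, in percent, for each list with at least 10 members tested. Dashed lines mark the shares over all 18627 features, 4.17% higher and 4.26% lower. Intermediate progenitor genes reach 55.8% on the right and cholesterol synthesis genes 33.3% on the left.

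By class of transcript, 675 of 14718 protein-coding genes were higher (4.59%) and 734 lower (4.99%), beside 4.17% and 4.26% of all features. Annotated long non-coding RNAs gave 36 and 35 of 1472 (2.45% and 2.38%). Unannotated transcripts, assembled by the authors, gave 41 higher and 9 lower of 484 (8.47% and 1.86%). The most separated, XLOC_040806 (chr6:135290250-135303356, mm9), had 126 reads over the DP libraries, 4 over PP and 7 over Neuron. XLOC_040805, which lies 5′ of it on the same strand, had 59, 5 and 4 reads. The nearest protein-coding gene to both is Emp1, 9593 and 24726 bases away, which averaged 3.56 CPM in PP, 2.12 in DP and 0.0775 in Neuron.

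XLOC_007176 (chr11:108902125-108947626, mm9) had 97 reads in DP, 6 in PP and 2 in Neuron and lies 90028 bases from Axin2, itself called higher. Among those called lower, XLOC_012805, XLOC_029718 and XLOC_013970 had 7, 9 and 35 reads in DP. The highest level of any of these transcripts in a library was 1.01 CPM, for XLOC_040806 in DP. XLOC_012805, XLOC_029718 and XLOC_013970 each lost the call in at least 1 alternative. XLOC_040806, XLOC_007176 and XLOC_040805 kept it wherever they were tested, but the filter of 1 CPM in 3 libraries left them untested.

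The genes nearest in profile to each marker were found by Pearson's correlation of log2 (CPM + 0.5) over the 9 libraries, among genes with at least 5 CPM in DP. These libraries fall into 3 groups, so the value is a description of the shared group pattern. For Neurod4 they were Igsf8 (r = 0.996), Mfng, BC034090, Mta2 and Hes6. Igsf8, a cell surface immunoglobulin protein, averaged 286, 771 and 195 CPM in PP, DP and Neuron. For Kif26b they were Abcd2 (r = 0.995), Akna, Stat3, 1190002N15Rik and Zfp629. Abcd2, a peroxisomal fatty acid transporter, averaged 65.2, 217 and 64.4 CPM. For Prox1 they were Emx1 (r = 0.996), 2810006K23Rik, Stat3, Zfp423 and Kctd15. Emx1, a homeobox factor of the dorsal telencephalon, averaged 113, 234 and 105 CPM, and Stat3 averaged 27.8, 81 and 27.2 CPM.

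Members at the edge of the rule show how narrow the separation can be. Cntrob, a centrosomal protein gene, was the called gene with the smallest gap, at 75.5, 78.6 and 107 CPM (PP), 125, 107 and 144 (DP) and 77.3, 77.5 and 81.8 (Neuron), with its lowest DP library barely above its highest PP library. Nt5dc2 passed both tests but overlapped, at 242, 253 and 204 CPM in DP and 169.5, 204 and 183 in PP. On the lower side Anxa5 was just inside, at 2.26, 1.72 and 1.42 CPM in DP and 2.58, 3.21 and 2.27 in Neuron, and Fam63b just outside. Both Cntrob and Anxa5 lost their calls in at least 1 alternative. Fam63b stood at 19.6, 21.2 and 17.7 CPM in DP and 24.9, 25.9 and 21.2 in PP.

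The authors' deposited tables give a second reading of the same counts. Taking their adjusted p under 0.05 for both steps, with no condition on overlap, 796 features were higher and 838 lower in DP. Without that condition the counts here were 814 and 837, and the calls compared next include it. Of the 776 called higher here 728 were among them (93.8% of those here and 91.5% of those in the authors' deposited tables), and of the 793 called lower 755 (95.2% and 90.1%). For Neurod4 the authors' deposited table gives log2 fold changes of 3.88 (DP over PP) and -5.47 (Neuron over DP).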

How the data were processed

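The authors deposited read counts per gene, whole numbers for each run. The submitters' processing notes name TopHat2 2.0.10, Bowtie2 2.2.1, Cufflinks 2.1.1, featureCounts 1.4.4 and DESeq2 1.4.5 with no role or order, and the build mm9. Gene identifiers are those of Ensembl release 67, per the file headers. The log2 fold change and adjusted p-value of each deposited comparison are the authors' own. Count columns carry library numbers that no label gives, so each was tied to its group by the fraction named in it.

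Both runs of a library were added, giving 9 libraries. Chi-square per degree of freedom between libraries of a group was 7.99 to 29.8, so none repeated another. Replicates are biological per the series design. Groups were compared in R 4.3.3 with edgeR 4.0.16 (TMM scaling, filterByExpr, quasi-likelihood test on all 9 libraries, Benjamini-Hochberg adjustment at 0.05 over 18627 features). Folds are fitted values and CPM use TMM-scaled totals. On simulated data for this comparison, run on 18627 features, 62.7%, 85.1% and 100% of genes changed by 1.5, 2 and 4-fold were found, with 0 calls among 18079 unchanged features. The simulated PP and Neuron levels were equal, whereas 14035 features (75.3%) differed between Neuron and PP in the data. The simulation therefore does not cover false calls of genes whose ends differ.

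Named genes are Neurod4, Kif26b, Prox1 and the sort genes, the 15 annotated genes each way with the largest smaller-of-both fold, 3 unannotated transcripts each way, up to 4 called members per list with defining members that did not pass, the edge genes and the 5 nearest profiles per marker. Further list members were named after their values were seen, and a few list members are not reported here by name. The members and the 38 lists were chosen with earlier results of these data known. Alternatives were other scalings and filters, DESeq2 1.42.0, each run type alone, a term for the library number series and leaving out libraries.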

Additional observations from a re-analysis of the deposited data

How the results depend on the processing

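The counts of genes higher and lower in DP than in both ends (776 and 793) stayed within 1.5 times under all alternatives but the one that also asked for at least 1.5-fold in both steps, which gave 380 and 374. Leaving out each library in turn gave 640 (without DP library L394) to 885 (without DP library L223) higher and 614 (without DP library L356) to 816 (without DP library L223) lower. Against the mean of both ends these ranges were 4078 to 4586 higher and 3264 to 3706 lower. Of the genes called, 540 higher and 507 lower kept the call in each leave-one-out fit, and 464 and 425 in all 18 alternatives. No paired analysis was possible because the count columns carry library numbers, which no label ties to the replicate numbers of the titles other than by order. An additive term for the 3 runs of consecutive library numbers, L222 to L224, L355 to L357 and L393 to L395, stood in for it and gave 894 and 903, and 5494 and 4471 against the mean. Of 2878 values of 161 genes, 2748 kept direction and call, 127 lost the call, 3 gained it (all for Tubb3 against the mean of both ends) and 0 turned direction. These were the called genes selected for naming, all called list members, Tubb3 and the edge genes. Genes named only as uncalled list members or as nearest profiles were not counted. Scaling moved the median of all features by under 0.1 on the log2 scale. Low reads limit the unannotated transcripts, of which 24 to 51 were called higher over the alternatives.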

Other observations

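Of 28 immediate early and heat shock genes, 3 were higher, among them the sort gene Btg2, and 1 lower (10.7% and 3.57%). The shares over all features were 4.17% and 4.26%. Fos, a transcription factor induced by activity and by dissociation, stood at 24.9, 22.7 and 19.5 CPM (PP), 68.5, 49.1 and 36.6 (DP) and 16.3, 16.4 and 17.4 (Neuron), with L223 the highest library, and Ier2 at 88.3, 82.4 and 83.5 CPM (PP), 130.4, 108 and 101 (DP) and 71.7, 66.9 and 58.9 (Neuron). Nr4a1, another immediate early gene, moved the other way and stood at 8.51, 8.67 and 9.82 CPM (PP), 5.51, 4.79 and 5.88 (DP) and 9.79, 10.8 and 11.1 (Neuron) (1.67-fold under PP and 1.96-fold under Neuron; adjusted p = 0.000415, edgeR).

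Of 26 p53 target and apoptosis genes, Eda2r was higher and Aen, Bcl2 and Bid lower (3.85% and 11.5%). For this list and those below, the shares over all features were 4.17% higher and 4.26% lower. Aen, an apoptosis-enhancing nuclease, stood at 59.95, 64.5 and 59.8 CPM (PP), 52.2, 49.8 and 49.2 (DP) and 58.4, 63.2 and 57.1 (Neuron). The calls of Bcl2 and Bid were lost in at least 1 alternative, among them without DP library L356 (adjusted p = 0.053 and 0.0629, edgeR), where 1 member of this list was lower. Of 45 FGF, BMP and TGF-beta genes, Id3 was higher, in most but not all alternatives, and Spry2 and Fgf13 lower (2.22% and 4.44%). Spry2, a feedback inhibitor of FGF signalling, stood at 28.1, 36.2 and 32.8 CPM (PP), 13.0, 17.9 and 18.9 (DP) and 24.4, 28.1 and 27.4 (Neuron) and Fgf13, an intracellular FGF-like protein, at 77.5, 72.9 and 61.3 CPM (PP), 32.4, 27.6 and 24.3 (DP) and 47.5, 48.5 and 49.9 (Neuron). Of 30 layer identity factors, Lhx2 was higher and Rorb, Ldb2 and Mef2c lower (3.33% and 10%). Ldb2, a LIM-domain cofactor of deep layer neurons, stood at 10.7, 8.39 and 7.21 CPM (PP), 3.34, 3.12 and 2.68 (DP) and 55.5, 59.5 and 49.2 (Neuron), and Rorb, a factor of layer IV neurons, at 22.2, 19.1 and 15.3 CPM (PP), 9.61, 11.1 and 8.49 (DP) and 24.9, 27.1 and 22.2 (Neuron). Mef2c lost its call without PP library L355 (adjusted p = 0.0584, edgeR). Of 32 synaptic vesicle genes Rims2 was called higher, at 26.1, 25.9 and 28.1 CPM (PP), 43.2, 44.4 and 42.9 (DP) and 38.6, 31.2 and 34.8 (Neuron).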
